A study of Mus musculus with 14 samples.

Results

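Keratins are the intermediate filament proteins of epithelial cells, and here their transcripts were followed in sorted mouse hair follicle stem cells (HFSC) and in regulatory T (Treg) cells sorted from skin. The members were all rows whose symbol is Krt, a number and at most 1 letter, without the keratin-associated protein genes. This gave 55 genes of 24537 in each table, 28 of type I and 27 of type II. They were grouped by textbook site of expression into 3 basal and bulge, 14 suprabasal and cornifying, 4 stress and wound, 5 simple epithelial, 9 inner root sheath and companion layer, 16 hair shaft and 4 other keratins.

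The GR WT mice were wild type, and the GR KO mice were Foxp3YFP-Cre GRfl/fl, in which Cre is driven from Foxp3, the Treg lineage gene, and removes a floxed glucocorticoid receptor (GR) gene. All mice had been depilated, which starts a new hair cycle. Treg cells were taken at day 1 (3 GR WT and 5 GR KO libraries). HFSC were sorted as CD34+ ITGA6high cells at day 4 (3 and 3 libraries), and are not the cells in which Foxp3 drives Cre. The labels give no age or sex, do not say whether the wild-type mice carry Cre, and do not say whether each library is a separate mouse. p-values therefore measure the spread between these libraries, which may be technical.

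A type I and a type II keratin pair to build each filament. Krt5 and Krt14 pair in the basal layer of the epidermis and in the outer root sheath of the follicle. Krt15 marks the bulge, where HFSC reside, and Krt17 is found in the outer root sheath and rises in wounded or stressed epidermis. Krt1 and Krt10 replace the basal pair as cells move upward, Krt79 marks the upper follicle and the sebaceous duct, and the inner root sheath and hair shaft have pairs of their own. Desmosomes join keratin filaments of neighbouring cells, and hemidesmosomes tie them to the basement membrane. T cells are not known to use keratins as structural proteins.

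On mm10, 27 of the 55 genes, all of type I, lay on chromosome 11 between positions 99233098 and 100269871, all on the minus strand. The other 28 lay on chromosome 15 between 101349571 and 102032026, and consisted of the 27 type II genes and the type I gene Krt18. On chromosome 15, 24 genes were on the minus strand and 4, Krt7, Krt18, Krt86 and Krt88, on the plus strand. Krt5 (NM_027011, chromosome 15, 101707070 to 101712891) lay close to Krt6a (NM_008476, 101689928 to 101694305). Krt14 (NM_016958, chromosome 11, 100203162 to 100207510), Krt15 (NM_008469, 100131759 to 100135949) and Krt17 (NM_010663, 100256215 to 100261029) shared the other cluster.

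RefSeq promoters (mm10, 250 bases before to 50 after the annotated start) were held for 36 of the 55 keratins. The letters ATAAAA, which resemble a core promoter motif and were searched on both strands, occurred in 22 of these 36 promoters (61.1%) and in 18.5% of 32851 promoters of the same length. The glucocorticoid receptor element, taken as AGAACA, any 3 bases and its reverse complement, occurred in none of the 36, against 0.00913% of all promoters. A match is a description of letters and not a binding site, and no match speaks only of this window. The 4 promoters shown belong to genes named in the results, and both they and the motif were chosen after the values were seen. No promoter was held for Krt15, Krt17 or Krt6a. The promoter held for Krt14 has no ATAAAA, and its start lies 1480 bases from that of the deposited transcript. Capitals mark ATAAAA. It begins at -29 in Krt5, at +32 in Krt79, at -32 in Krt75 and at -145 in Krt24, counted from the RefSeq start. All 4 are read 5′ to 3′ on the minus strand.
Krt5, chr15:101712856-101713155: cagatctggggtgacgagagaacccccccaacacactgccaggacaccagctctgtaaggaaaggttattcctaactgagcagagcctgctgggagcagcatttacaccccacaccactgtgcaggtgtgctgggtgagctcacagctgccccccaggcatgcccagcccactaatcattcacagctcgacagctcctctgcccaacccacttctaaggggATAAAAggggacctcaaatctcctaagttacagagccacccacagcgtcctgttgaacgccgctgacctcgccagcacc
Krt79, chr15:101940275-101940574: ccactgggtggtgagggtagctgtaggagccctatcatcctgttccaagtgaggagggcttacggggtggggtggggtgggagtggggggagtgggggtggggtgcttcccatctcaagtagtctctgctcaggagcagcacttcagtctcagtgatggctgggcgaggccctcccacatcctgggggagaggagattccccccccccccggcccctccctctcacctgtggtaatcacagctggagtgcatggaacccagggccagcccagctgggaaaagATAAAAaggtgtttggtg
Krt75, chr15:101573855-101574154: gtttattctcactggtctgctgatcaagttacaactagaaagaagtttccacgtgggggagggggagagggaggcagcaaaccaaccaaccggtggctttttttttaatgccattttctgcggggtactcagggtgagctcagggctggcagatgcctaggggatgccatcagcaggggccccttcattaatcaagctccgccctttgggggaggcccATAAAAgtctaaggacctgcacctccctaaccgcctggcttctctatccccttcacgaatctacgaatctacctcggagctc
Krt24, chr11:99285213-99285512: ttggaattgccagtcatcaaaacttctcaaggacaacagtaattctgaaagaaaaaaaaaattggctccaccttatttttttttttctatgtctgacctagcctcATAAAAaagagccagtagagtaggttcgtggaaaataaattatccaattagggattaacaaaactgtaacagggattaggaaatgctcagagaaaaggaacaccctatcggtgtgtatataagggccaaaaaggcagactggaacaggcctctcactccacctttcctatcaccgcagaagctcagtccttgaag

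Values are TPM, reads scaled to library size and to transcript length. The deposited values summed to 639752 to 645251 TPM per HFSC library and 649917 to 668742 TPM per Treg library. Whole sequenced tags were recovered from the TPM values, 4.50 to 7.99 M per HFSC library and 9.17 to 14.5 M per Treg library. Nr3c1, the receptor gene that the mice were made to lose in Treg cells, was at 106 to 171 TPM in Treg GR KO and 170.5 to 233 TPM in Treg GR WT (limma adjusted p = 0.0722), and at 35.7 to 48.5 and 34.8 to 48.9 TPM in HFSC. The first principal component set HFSC GR WT library 1, the shallowest, apart from the other 5 (59.8 against -17.7 to -4.02). In Treg it set GR WT library 3 apart (52.1, with 22.9 and 12.4 in the other GR WT and -24.5 to -9.56 in GR KO). Differences of keratins that move with those libraries are also given without them.

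HFSC libraries carried the keratins of the follicle's outer layers at very high level. The keratin rows summed to 21672 to 26839 TPM in GR WT and to 16980 to 19784 TPM in GR KO, which is 3.38% to 4.18% and 2.65% to 3.08% of the deposited TPM, and the groups did not overlap. Krt5, Krt14, Krt15 and Krt17, the markers of the label, made up 94.1% to 95.5% of the keratin TPM in GR WT and 88.7% to 91.8% in GR KO. Of the 55 genes, 6 had a mean above 100 TPM (Krt5, Krt15, Krt14, Krt17, Krt79 and Krt6a), 11 a mean above 10 TPM, and 10 were listed at 0 in all 6 libraries. Type I keratins stood at 1.17 to 1.31 times the type II keratins in GR WT and 1.15 to 1.22 times in GR KO.

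In the comparison of HFSC from both genotypes, which asks how stem cells differ when the receptor gene is deleted in Treg cells, no keratin passed the test. Of the 55 keratins, 23 had a mean of at least 1 TPM and were tested, and 0 were called by limma at an adjusted p of 0.05, where 0.176% of all 12493 tested genes were called (0.032% lower). At an unadjusted p of 0.05, 4 keratins were lower (Krt17, Krt5, Krt19 and Krt8) and 2 higher (Krt79 and Krt6a), beside 8.8% and 7.8% of all tested genes (16.6% in both directions). The voom fit on recovered tags called 3 (Krt17, Krt5 and Krt79), and 483 genes in all. The median difference of the 23 was -0.16 on the log2(TPM + 1) scale, beside -0.02 over all tested genes. All differences below are GR KO minus GR WT on that scale, which understates changes of genes near 1 TPM.

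**Figure D1:**
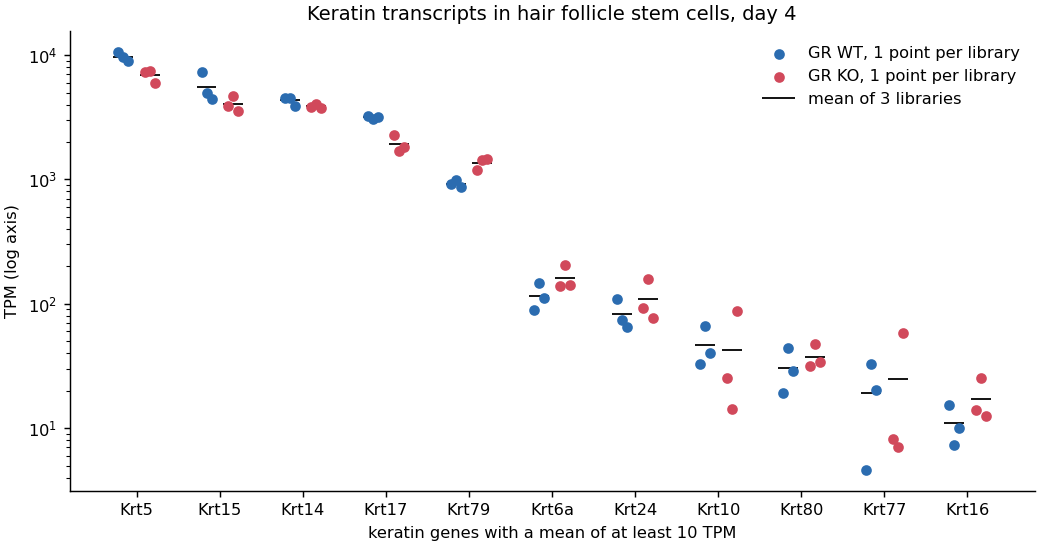
TPM (log axis) of the 11 keratins with a mean of at least 10 TPM in HFSC, 1 point per library, with the mean of 3 libraries as a line. Krt17 and Krt5 lie lower in all 3 GR KO libraries than in any GR WT library, Krt79 lies higher, and the other 8 overlap.

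Krt5, the basal type II keratin, had the highest keratin level in every HFSC library. It was at 10560, 9682 and 8968 TPM in GR WT libraries 1 to 3 and at 7253, 7490 and 5941 TPM in GR KO libraries 1 to 3. All GR KO libraries lay below all GR WT libraries, a pattern that 12.8% of tested genes showed. The difference was -0.50 (SE 0.14, 95% interval -0.82 to -0.18, limma adjusted p = 0.145), and -0.44 without GR WT library 1. Transcripts of Krt5 share 8.52% of their 50-base windows with other genes, mostly Krt6a.

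Krt14, its basal partner, was at 4548, 4524 and 3920 TPM in GR WT and at 3832, 4037 and 3740 TPM in GR KO. The groups overlapped, and the difference was -0.16 (95% interval -0.42 to 0.10, limma adjusted p = 0.518). Krt5 stood at 2.14 to 2.32 times Krt14 in GR WT and at 1.59 to 1.89 times in GR KO, with no overlap. Transcripts of Krt14 share 14.4% of their 50-base windows with other genes, mostly Krt16. Krt15, the bulge keratin, was at 7252, 4984 and 4440 TPM in GR WT and at 3867, 4649 and 3562 TPM in GR KO. GR WT library 1 was the highest by far, and GR WT library 3 lay within the GR KO range. The difference of Krt15 was -0.44 (limma adjusted p = 0.308) and -0.23 without GR WT library 1. That library also moved the median of the 3 basal and bulge keratins, from -0.44 to -0.23 when it was left out.

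The stress keratins did not move together. Krt17 was at 3257, 3042 and 3167 TPM in GR WT and at 2277, 1699 and 1810 TPM in GR KO, so all GR KO libraries lay lower. Its GR KO mean was 61.1% of the GR WT mean, with a difference of -0.72 (SE 0.13, 95% interval -1.02 to -0.42). This was the smallest p among keratins, ranked 85 of 12493 genes, with a limma adjusted p of 0.0689. It passed with a robust prior (adjusted p = 0.0491) and with voom (0.00685), and its adjusted p ran from 0.00685 to 0.264 over the alternatives. Krt6a, induced in wounded epidermis, was at 89.4, 147 and 111 TPM in GR WT and at 138, 207 and 143 TPM in GR KO (difference 0.49, adjusted p = 0.291), with overlap. Its difference was 0.32 without GR WT library 1 and 0.31 without GR KO library 2. Krt16, the usual type I partner of Krt6a, was at 15.5, 7.35 and 10.1 TPM in GR WT and 14.1, 25.1 and 12.5 TPM in GR KO (difference 0.60, adjusted p = 0.384), with overlap. Without GR KO library 2, its highest library, the difference was 0.31, and it was 0.37 without GR WT library 2 and 0.86 without GR WT library 1.
Krt6a shares 43.6% of its windows with Krt6b, and Krt16 shares 37.6% of its windows with other genes, so their split is uncertain. Krt6b was at 0 to 0.685 TPM in HFSC and was not tested.

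Among suprabasal and cornifying keratins, Krt79 was the main transcript in HFSC. It was at 920, 986 and 864 TPM in GR WT and at 1198, 1428 and 1459 TPM in GR KO. Every GR KO library exceeded every GR WT library, which 10.7% of tested genes showed. The difference was 0.56 (SE 0.11, 95% interval 0.30 to 0.82), ranked 168 by p, with a limma adjusted p of 0.0782. With voom the adjusted p was 0.0271, and without GR WT library 1 the difference was 0.55. Krt79 stood at 0.0871 to 0.102 times Krt5 in GR WT and at 0.165 to 0.246 times in GR KO. No 50-base window of its transcript is shared with another gene.

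Markers of sebaceous cells moved with Krt79. All 9 sebocyte genes were higher in all GR KO libraries, a pattern that 10.7% of tested genes showed. Their median difference was 0.90, and their sums were 3547 to 5459 TPM in GR WT and 7692 to 9777 TPM in GR KO. Of these genes, 1 was called, beside 0.144% of all tested genes called higher. This was Plin2, a lipid droplet gene (699 ± 51.9 to 1186 ± 83.5 TPM, SD, n = 3 each, limma adjusted p = 0.0459). The upper follicle list without Krt79 summed to 303 to 444 TPM in GR WT and 263 to 362 TPM in GR KO, with overlap. The sorted markers Cd34 and Itga6 were at 126 ± 20.7 TPM and 105 ± 19.6 TPM in GR WT and at 169 ± 49.6 TPM and 109.5 ± 5.86 TPM in GR KO (SD, n = 3 each). The bulge list of 10 genes, both included, summed to 1614 to 1679 TPM in GR WT and 1307 to 1533 TPM in GR KO, and 0 of 10 were called (3 lower and 0 higher at an unadjusted p of 0.05). Fewer cells of a type and less RNA per cell cannot be told apart in bulk samples, and the part of these cells in the keratin differences was not tested. Keratinocyte genes other than keratins summed to 6471 to 7339 and 6216 to 7030 TPM, T cell genes to 11.4 to 14.5 and 15.9 to 18.7 TPM, and the Merkel cell genes Atoh1, Sox2 and Isl1 were at 0. Within the T cell sum, Ikzf2 was at 5.77 ± 1.95 TPM in GR WT and 11.7 ± 0.686 TPM in GR KO (SD, n = 3 each). Lck was at 4.68 and 3.53 TPM on average, and the other T cell genes listed averaged at most 1.07 TPM.

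The keratins of differentiating epidermis were low and uneven. Krt24 was at 110, 73.7 and 65.4 TPM in GR WT and at 92.2, 159 and 77.4 TPM in GR KO (difference 0.36, adjusted p = 0.557). The difference of Krt24 was 0.58 without GR WT library 1, 0.58 without GR KO library 3 and 0.06 without GR KO library 2, the library with the highest level. Krt10 was at 32.7, 66.6 and 39.9 TPM in GR WT and at 25.5, 14.2 and 87.5 TPM in GR KO (difference -0.46, adjusted p = 0.726), and the difference was 0.10 without GR KO library 2. GR KO library 3 was the highest of the 6 libraries for Krt10, for Krt77 (58.7 TPM against 4.62 to 32.9) and for Krt1 (8.70 TPM against 0.927 to 3.53). It was also the highest for the inner root sheath genes Krt71 and Krt25 and the hair shaft gene Krt35, described below. These 6 genes were grouped after their values were seen. Of the 8 suprabasal keratins tested, 6 were higher and 2 lower in GR KO, 1 of them, Krt79, at an unadjusted p of 0.05.

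**Figure D2:**
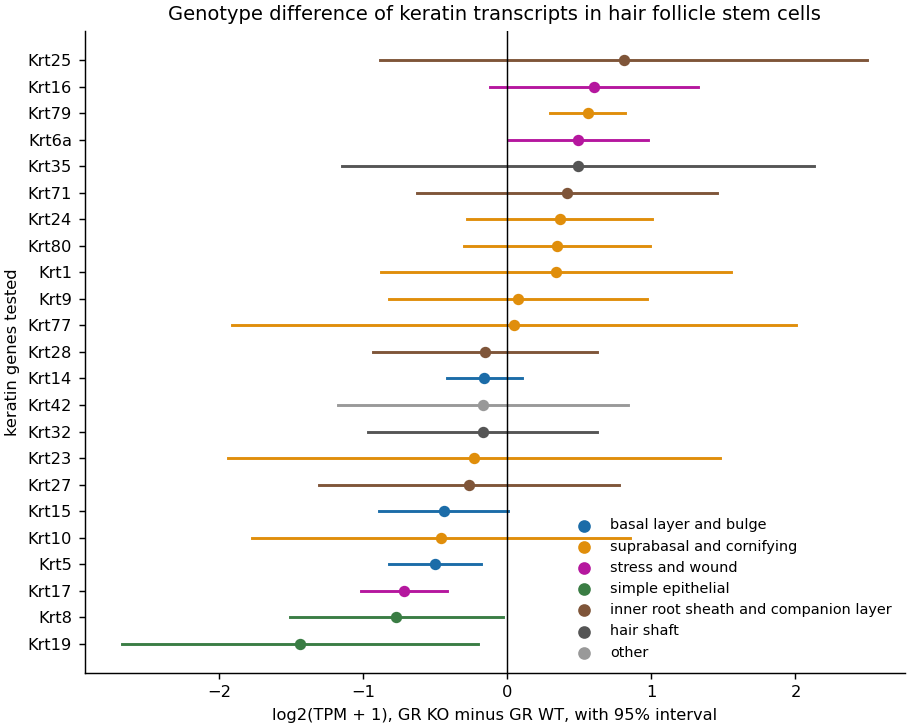
Difference in log2(TPM + 1), GR KO minus GR WT, with its 95% interval, for the 23 keratins tested in HFSC, coloured by class. Krt17, Krt5, Krt8 and Krt19 lie to the left of 0 with their intervals, Krt79 and Krt6a to the right, and the other intervals cover 0.

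Simple epithelial keratins were low in HFSC. Krt19, a type I keratin that the bulge also expresses, was at 7.16, 1.12 and 5.72 TPM in GR WT and at 0.248, 1.35 and 0.979 TPM in GR KO (difference -1.44, SE 0.54, limma adjusted p = 0.245). GR WT library 2 lay within the GR KO range. The 2 tables list different transcripts for Krt19. Krt8 was at 2.11, 2.55 and 3.28 TPM in GR WT and at 1.51, 0.687 and 1.24 TPM in GR KO (difference -0.77, adjusted p = 0.285), with no overlap, but 26.9% of its windows are shared with a pseudogene. At a length of 2000 bases, a count of 3 tags equals 0.308 to 0.515 TPM in HFSC, counting error only. Krt18, the partner of Krt8, was at 0 to 0.731 TPM and was not tested.

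Keratins of the inner root sheath and hair shaft were low. Of 9 inner root sheath and companion layer genes, 4 were tested and none reached an unadjusted p of 0.05. Krt28 was at 5.11, 5.67 and 12.3 TPM in GR WT and 8.72, 4.72 and 6.03 TPM in GR KO (difference -0.16, adjusted p = 0.855), and its sign turned without GR WT library 3 or GR KO library 2. Krt71 was at 3.65, 3.88 and 3.04 TPM in GR WT and at 3.24, 2.85 and 12.3 TPM in GR KO (difference 0.41, adjusted p = 0.69), and the difference was -0.16 without GR KO library 3. Krt25, a type I partner in the sheath, was at 0.419, 2.17 and 0.552 TPM in GR WT and at 3.72, 0 and 6.93 TPM in GR KO (difference 0.81, adjusted p = 0.625). Its difference ran from 0.19 without GR KO library 3 to 1.68 without GR KO library 2. Krt75, of the companion layer, was at 0.422, 0.624 and 0.626 TPM in GR WT and at 2.08, 1.20 and 0.822 TPM in GR KO, with no overlap. Its mean of 0.963 TPM was below the filter, so it was not tested.
Of 16 hair shaft keratins, 7 were at 0 in all HFSC libraries and 2 were tested. Krt32, of the hair cuticle, was at 1.86, 0.916 and 2.18 TPM in GR WT and 1.09, 1.23 and 1.61 TPM in GR KO (difference -0.17, adjusted p = 0.842), and the difference ran from -0.03 without GR WT library 3 to -0.39 without GR WT library 2. Krt35, of the hair matrix and cortex, was at 0, 0.890 and 0.529 TPM in GR WT and at 0.264, 0 and 5.34 TPM in GR KO (difference 0.49, adjusted p = 0.77), and was under the filter without GR KO library 3. Krt42 was the 1 tested member of the other group, at 2.68, 1.65 and 0.589 TPM in GR WT and at 1.91, 0.534 and 1.45 TPM in GR KO (difference -0.17, adjusted p = 0.88), and its sign turned without GR WT library 1 or GR KO library 2. The deposited Krt85 row spans 60290 bases of chromosome 15 and covers Krt87, Krt83, Krt81, Krt88 and Krt86, so their reads cannot be assigned with certainty.

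Genes that work with keratins in HFSC gave 0 calls in each of 5 lists. Among 14 desmosome genes, 1 was lower and 1 higher at an unadjusted p of 0.05, beside 8.8% and 7.8% of all tested genes. Pkp2, a plakophilin, was at 2.71 ± 0.778 TPM in GR WT and 6.20 ± 1.70 TPM in GR KO (SD, n = 3 each, difference 0.95, limma adjusted p = 0.164). Evpl, the envoplakin gene, was at 46.1 ± 8.43 and 34.2 ± 4.23 TPM (difference -0.42, adjusted p = 0.254). Pkp3 and Perp differed by -0.19 and 0.17 (adjusted p = 0.406 and 0.543). Among 9 hemidesmosome genes, 7 were lower, 2 of them at an unadjusted p of 0.05, beside 8.8% of all tested genes. Plec, the gene of plectin, which links keratin filaments to the hemidesmosome, was at 94.5 ± 6.42 TPM in GR WT and 78.2 ± 6.96 TPM in GR KO (SD, n = 3 each, difference -0.27, limma adjusted p = 0.274). Lama3 and Lamb3 stood at -0.26 and -0.15 (adjusted p = 0.46 and 0.549).

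Of 21 tested transcription factors of keratin genes, 12 were higher and 9 lower in GR KO, with a median difference of 0.10, and none was called. At an unadjusted p of 0.05, 8 were higher and 1 lower, beside 7.8% and 8.8% of all tested genes. Zfp750, a factor of epidermal differentiation, was at 35.0 ± 1.81 TPM in GR WT and 54.9 ± 1.97 TPM in GR KO (SD, n = 3 each, difference 0.64, SE 0.11, limma adjusted p = 0.066). Klf4, which promotes barrier formation, was at 391 ± 34.8 and 575 ± 107 TPM (difference 0.54, adjusted p = 0.127). Grhl1 was at 48.7 ± 6.72 and 70.8 ± 7.50 TPM (difference 0.53, adjusted p = 0.126). Cebpb was at 242 ± 18.3 and 337 ± 43.5 TPM (difference 0.47, adjusted p = 0.123). The 1 lower at an unadjusted p of 0.05 was Lhx2, a bulge stem cell factor, at 382 TPM in GR WT and 282 TPM in GR KO on average (difference -0.45, adjusted p = 0.144).

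Cornified envelope genes gave no value below an unadjusted p of 0.05 among 11 tested. Sbsn was at 573 ± 176 TPM in GR WT and 415 ± 33.9 TPM in GR KO (SD, n = 3 each, difference -0.42, limma adjusted p = 0.349). GR WT library 1 was the highest library for Sbsn (754 TPM) and for Calml3 (692 TPM). Calml3, Cstb and Tgm1 differed by -0.30, 0.32 and -0.41 (adjusted p = 0.503, 0.592 and 0.618). Of the list of hair shaft and inner root sheath proteins, 4 genes were tested, 1 of them Lgr5, a stem cell receptor that is also on the bulge list. The other 3 were higher in GR KO, 2 at an unadjusted p of 0.05, beside 7.8% of all tested genes. Hephl1 was at 15.2 ± 4.43 and 29.0 ± 4.72 TPM (SD, n = 3 each, difference 0.91, limma adjusted p = 0.116). S100a3 was at 1.63 ± 1.82 and 5.40 ± 1.79 TPM (difference 1.51, adjusted p = 0.222). Tchh and Lgr5 differed by 0.38 and 0.09. The 5 keratin-associated protein genes at 0 in all HFSC libraries, with Crisp1, were Krtap3-1, Krtap4-1, Krtap5-2, Krtap8-1 and Krtap9-3.

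In Treg libraries keratin transcripts were a small part of the RNA and differed strongly by genotype. The keratin rows held 4862, 4957 and 11808 tags in GR WT libraries 1 to 3 and 345, 945, 1794, 512 and 549 tags in GR KO libraries 1 to 5. In TPM this was 367, 344 and 610 in GR WT and 22.3, 68.5, 111, 25.4 and 27.4 in GR KO, so the groups did not overlap. The highest GR WT library held 0.0939% of its deposited TPM in keratins and the lowest GR KO library 0.00334%. All 8 Treg libraries held keratin tags, and 30 of the 55 genes were at 0 in every one.

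**Figure D3:**
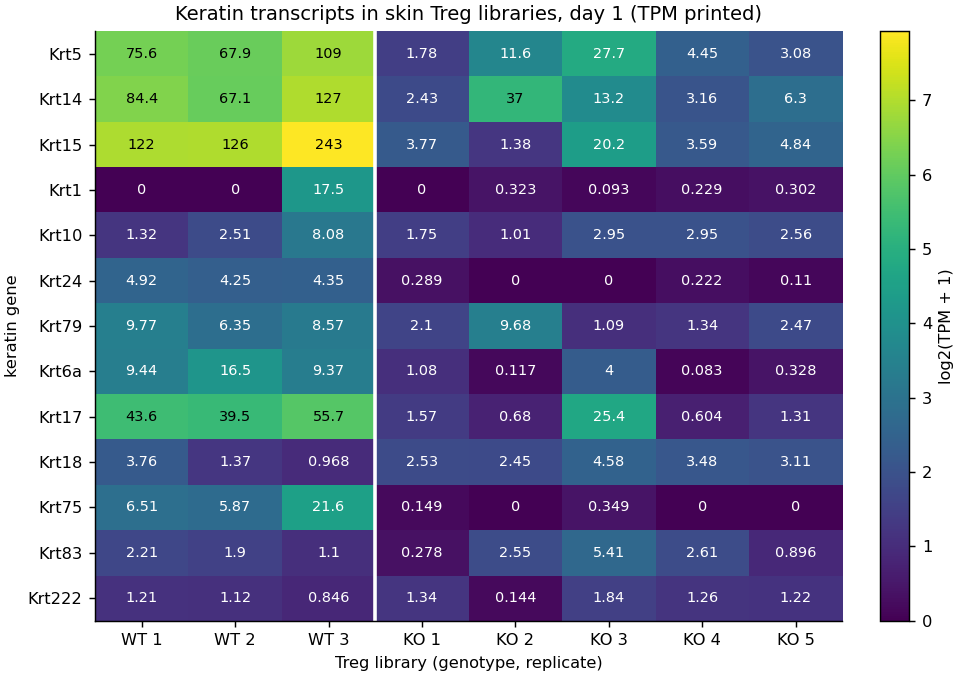
TPM (numbers) and log2(TPM + 1) (colour) of the 13 keratins tested in Treg libraries, with GR WT to the left of the white line and GR KO to the right. Krt15, Krt14, Krt5 and Krt17 reach 39.6 to 243 TPM in GR WT, and single GR KO libraries stand out for Krt14 (library 2) and Krt17 (library 3).

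Of 13 keratins tested in Treg, 7 fell in GR KO by limma at an adjusted p of 0.05 and 0 rose. This was 53.8% of those tested, beside 1.51% of all 11579 tested genes (1.31% lower and 0.199% higher). At an unadjusted p of 0.05, 8 keratins were lower and 0 higher, beside 8.93% and 5.15% of tested genes. The rule for testing needed a mean of 1 TPM over all 8 libraries, and Krt24, Krt75 and Krt1 had GR KO means below 1 TPM, so the share is a description. The median difference of the 13 was -2.30, beside -0.04 over all tested genes. In each of the 7, all GR KO libraries lay below all GR WT libraries, which 5.1% of tested genes showed, and in none of the 13 did all GR KO libraries lie above, beside 3.42%.

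Krt15 had the largest difference on the log2(TPM + 1) scale. By the ratio of GR WT to GR KO means, Krt75 (114), Krt24 (36.3) and Krt1 (30.8) exceeded Krt15 (24.2). All of those had GR KO means below 1 TPM, and the Krt1 ratio rests on GR WT library 3. Krt15 was at 122, 126 and 243 TPM in GR WT and at 3.77, 1.38, 20.2, 3.59 and 4.85 TPM in GR KO (difference -4.76, SE 0.55, limma adjusted p = 0.00214). GR KO library 3 was far above the other 4, and GR WT library 3 was the highest of all, and without it the difference was -4.44. The basal keratin Krt5 was at 75.6, 67.9 and 109 TPM in GR WT and at 1.78, 11.6, 27.7, 4.45 and 3.08 TPM in GR KO (difference -3.49, adjusted p = 0.0171). Krt14 was at 84.4, 67.1 and 127 TPM in GR WT and at 2.43, 37.0, 13.2, 3.16 and 6.30 TPM in GR KO (difference -3.35, adjusted p = 0.0276). Here GR KO library 2 was the highest of its group, and Krt14 alone made up 54.1% of its keratin TPM.

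The stress keratins Krt17 and Krt6a fell as well. Krt17 was at 43.6, 39.6 and 55.7 TPM in GR WT and at 1.58, 0.680, 25.4, 0.604 and 1.31 TPM in GR KO (difference -3.80, SE 0.76, limma adjusted p = 0.034). GR KO library 3 held 344 Krt17 tags, and the other GR KO libraries 8 to 22. Krt6a was at 9.44, 16.5 and 9.37 TPM in GR WT and at 1.08, 0.117, 4.00, 0.083 and 0.328 TPM in GR KO (difference -2.82, adjusted p = 0.0133). Krt16 was at 0.531, 0 and 0.557 TPM in GR WT and at 0 in all GR KO libraries.

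Krt24 and Krt75 were near the floor in GR KO. Krt24 was at 4.92, 4.25 and 4.35 TPM in GR WT and at 0.289, 0, 0, 0.222 and 0.110 TPM in GR KO (difference -2.30, SE 0.27, limma adjusted p = 0.00233). It held 56 to 76 tags per GR WT library and 0 to 4 per GR KO library. Krt75 was at 6.51, 5.87 and 21.6 TPM in GR WT and at 0.149, 0, 0.349, 0 and 0 TPM in GR KO (difference -3.27, SE 0.39, adjusted p = 0.00242), or 150 to 730 and 0 to 10 tags. In Krt75, as in Krt15, GR WT library 3 was the highest, and without it the difference of Krt75 was -2.72. Krt24 and Krt75, with GR KO means of 0.124 and 0.0996 TPM, passed the filter only through GR WT, so their difference is a description.

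The call on Krt15 held in all 19 alternatives, with an adjusted p of 5.12e-05 to 0.033. The calls on Krt24 and Krt75 also held where they were tested, subject to the limit just given. The other 4 calls were lost without GR WT library 1 and without GR WT library 3, which left 3 calls of 13 and 12 tested. Without GR WT library 3 the adjusted p was 0.0891 for Krt5, 0.147 for Krt14, 0.0523 for Krt6a and 0.152 for Krt17. Without GR WT library 1 it was 0.0711, 0.0911, 0.0507 and 0.0993. Krt14 was also lost without GR KO library 4 (0.0578) or 5 (0.0618), and Krt17 without GR WT library 2 (0.0669) or GR KO libraries 1 (0.0745), 2 (0.0729), 4 (0.0689) or 5 (0.0725). A pseudocount of 0.1 TPM ended the calls on Krt6a (0.0538) and Krt17 (0.052), and no filter on low values those on Krt14 (0.0682) and Krt17 (0.0757). With a robust prior Krt5 (0.133), Krt14 (0.16) and Krt17 (0.166) did not pass.

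The 6 other tested keratins did not pass. Krt79 was at 9.77, 6.35 and 8.57 TPM in GR WT and at 2.10, 9.68, 1.09, 1.34 and 2.47 TPM in GR KO (difference -1.36, limma adjusted p = 0.213). GR KO library 2 alone reached the GR WT range, and without it the difference was -1.76 (adjusted p = 0.0113). With voom it passed too (adjusted p = 0.0495). Krt10 was at 1.32, 2.51 and 8.08 TPM in GR WT and at 1.75, 1.01, 2.95, 2.95 and 2.56 TPM in GR KO (difference -0.42, adjusted p = 0.708), and the difference was 0.14 without GR WT library 3. Krt1 was at 17.5 TPM in GR WT library 3, where it held 443 tags, and at 0 to 0.323 TPM in the other 7 (difference -1.16, adjusted p = 0.556), and without that library it was under the filter.
Krt18 was at 3.76, 1.37 and 0.968 TPM in GR WT and at 2.53, 2.45, 4.58, 3.48 and 3.11 TPM in GR KO (difference 0.57, adjusted p = 0.458, difference 0.31 without GR WT library 3 and 0.95 without GR WT library 1), while Krt8, Krt7, Krt19 and Krt20 were at 0 in all Treg libraries. Krt83 was at 2.21, 1.90 and 1.10 TPM in GR WT and at 0.278, 2.55, 5.41, 2.61 and 0.896 TPM in GR KO (difference 0.10, adjusted p = 0.954). Krt222 was at 1.21, 1.12 and 0.846 TPM in GR WT and at 1.34, 0.144, 1.84, 1.26 and 1.22 TPM in GR KO (difference 0.01, adjusted p = 0.992). The signs of Krt83 and Krt222 turned under alternatives.

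Many, but not all, other keratinocyte transcripts were lower in the same libraries. Of 10 tested keratinocyte genes that are not keratins, 7 fell, beside 1.31% of all tested genes, and the list summed to 353 to 412 TPM in GR WT and 53.1 to 118 TPM in GR KO. Sfn, on this list, averaged 49.6 and 45.3 TPM (limma adjusted p = 0.732). The desmosome gene Pkp3 averaged 41.7 and 38.5 TPM, and the cornified envelope gene Cstb 143 and 147 TPM (adjusted p = 0.692 and 0.943). Perp, a desmosome gene, fell from 81.3 ± 27.8 (SD, n = 3) to 8.96 ± 4.56 TPM (SD, n = 5, difference -3.11, limma adjusted p = 0.00155). Dsp and Dsc3, further desmosome genes, and Col17a1, a hemidesmosome collagen, fell, with differences of -1.84, -2.57 and -2.53 (adjusted p = 0.0145, 0.00569 and 0.00326). Trp63, the master factor of stratified epithelia, fell, with a difference of -1.71 (adjusted p = 0.0211). The cornified envelope genes Calml3, Sbsn and Krtdap fell, with differences of -2.92, -2.73 and -2.69 (adjusted p = 0.00484, 0.0133 and 0.00505). By list, 3 of 6 tested desmosome, 1 of 7 hemidesmosome, 1 of 10 transcription factor and 3 of 4 cornified envelope genes fell, and none rose, beside 1.31% and 0.199% of all tested genes. Dsp, Dsc3, Col17a1, Trp63 and Krtdap had GR KO means below 1 TPM and passed the filter only through GR WT, so these counts are descriptions. The 1 tested gene of the hair shaft and inner root sheath proteins was not called.

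Some marker lists of other skin cells also held genes that fell in Treg GR KO. Of 10 macrophage and monocyte genes, 5 fell, beside 1.31% of all tested genes (sums 208 to 367 TPM in GR WT and 63.5 to 168 TPM in GR KO). Of 3 tested neutrophil genes, 2 fell (sums 75.7 to 326 and 0 to 20.8 TPM), and of 8 tested sebocyte genes 3 fell (139 to 151 and 57.6 to 95.6 TPM). Of 6 fibroblast genes 0 were called (112 to 190 and 21.9 to 106 TPM). At an unadjusted p of 0.05, 5 of them were lower, beside 8.93% of all tested genes. Of 3 tested endothelial, 1 melanocyte and 4 upper follicle genes 0 were called by limma (1, 0 and 3 lower at an unadjusted p of 0.05). Their sums overlapped, at 18.3 to 35.9 and 14.7 to 19.6, 1.37 to 10.4 and 0.968 to 2.76, and, without Krt79, 33.0 to 61.2 and 15.1 to 39.1 TPM. T cell genes summed to 8484 to 9667 TPM in GR WT and 6757 to 9905 TPM in GR KO, and 1 of 9 fell, Il2ra. The part of other cells or their free RNA in the keratin differences was not tested.

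Keratin make-up differed between the 2 cell types. The tables were normalized separately and the days differ, so levels across them are descriptions. The 4 marker keratins made up 87.5% to 88.7% of keratin TPM in Treg GR WT and 42.8% to 77.5% in Treg GR KO. Krt5 stood at 0.857 to 1.01 times Krt14 in Treg GR WT, beside 2.14 to 2.32 times in HFSC GR WT. Krt15 stood at 1.61 to 2.23 times Krt5 in Treg GR WT and at 0.495 to 0.687 times in HFSC GR WT. In Treg GR KO the ratio of Krt5 to Krt14 ran from 0.312 to 2.10.

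**Figure D4:**
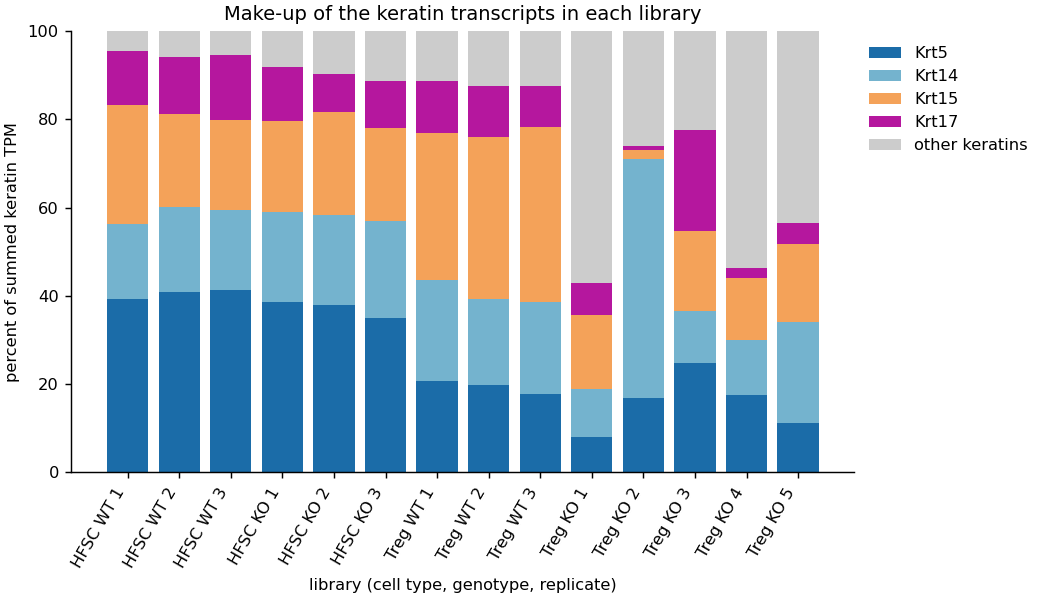
Percent of the summed keratin TPM of each library taken by Krt5, Krt14, Krt15, Krt17 and all other keratins, 1 bar per library. Krt5 takes the largest part of each HFSC bar (35.0% to 41.4%) and Krt15 of each Treg GR WT bar (33.3% to 39.8%), while the Treg GR KO bars differ among themselves.

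Set against the mean of all 6 HFSC libraries, the Treg libraries held each keratin at a different share. Krt5 was at 0.816% to 1.31% of its HFSC mean in Treg GR WT and at 0.0215% to 0.333% in GR KO. Krt14 was at 1.64% to 3.10% and 0.0593% to 0.903%, and Krt17 at 1.56% to 2.19% and 0.0238% to 0.998%. Krt15 was at 2.55% to 5.06% and 0.0288% to 0.421%. Krt79 was lower relative to HFSC, at 0.556% to 0.855% in GR WT, and Krt6a higher, at 6.74% to 11.9%.
Among the 13 keratins tested in Treg, the means of Krt18, Krt83 and Krt222, and of Krt75 and Krt1 in GR WT alone, stood above their HFSC means. Krt222 averaged 1.06 TPM in Treg GR WT and 1.16 TPM in GR KO, beside an HFSC mean of 0.396 TPM. The Treg GR WT mean of Krt1, 5.83 TPM beside 3.44 TPM in HFSC, came from GR WT library 3 alone. Krt75 in Treg GR WT was at 6.09 to 22.4 times its HFSC mean of 0.963 TPM, and in Treg GR KO at 0 to 0.363 times. Krt18 held 14 to 56 tags in every Treg library and 0 to 4 tags per HFSC library, where its mean of 0.176 TPM is below the 3-tag floor of 0.443 to 0.741 TPM, so no fold is given. Likewise without a fold, Krt83 had a Treg mean of 2.12 TPM and an HFSC mean of 0.0823 TPM, but 23.2% of its windows are shared with other keratins.

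**Figure D5:**
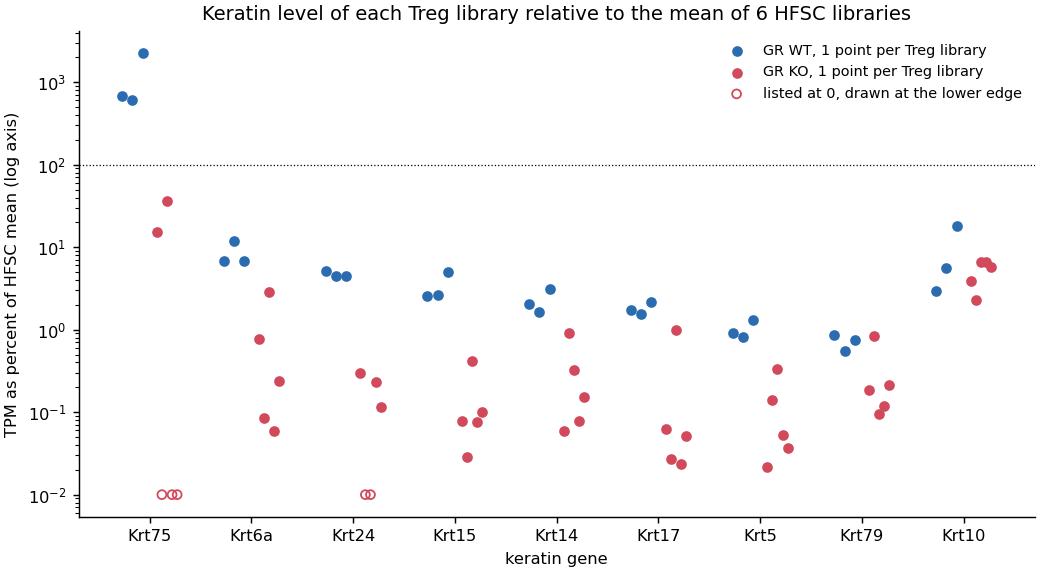
TPM of 9 keratins in each Treg library as percent of the mean of the 6 HFSC libraries (log axis, dotted line at 100 percent), with libraries listed at 0 drawn as open circles at the lower edge. Krt75 lies above 100 percent in the 3 GR WT libraries, and Krt79 and Krt10 are the genes whose genotypes overlap.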

How the data were processed

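RNA of 14 sorted samples was measured. The titles gave each sample's group and number. Per the submitters' processing notes, FastQC, Trim Galore, STAR and HOMER were used with mm10. The version of each tool and whether counting used strand is not given in the sources used here. For each cell type the authors deposited a table of TPM with a RefSeq transcript and its length per gene. The prefix of the HFSC columns is unexplained in the labels, so they were mapped by their table, genotype and replicate number.

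The keratin rows were read from fits over all genes of a table with limma 3.58.1 (R 4.3.3) on log2(TPM + 1) of the deposited values, with a trended prior, a filter at a mean of 1 TPM, and Benjamini-Hochberg adjustment, two-sided, at 0.05. Each table had its own fit (3 GR KO and 3 GR WT for HFSC, 5 and 3 for Treg). TPM times length was a whole multiple of 1 tag within 0.1 tag for 100% of low values, and these tags served the voom alternative. Chi-square per degree of freedom between replicates was 2.74 to 16.4, so none was a copy of another. Floors of 3 tags cover counting error only.

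The members and gene lists were chosen with earlier results of these data known. Values in every library are given for Krt5, Krt14, Krt15 and Krt17, for called keratins, and per class for the 3 highest of at least 1 TPM and the smallest p. From each partner list up to 4 genes with the smallest p in HFSC are given, except 1 gene that is not reported here, and Krt75 in HFSC, Krt77, Krt1 and Lhx2 there, and the called Treg partner genes, were named after their values were seen. Krt3, Flg and Trac are not analysed here. The fit was tested on simulated data with a replicate spread set at 12%, which may differ from that of the real libraries. In HFSC it recovered 14.9% of 1.5-fold and 88.1% of 2-fold changes, with 12 false calls. In Treg it recovered 46.3% and 98.5%, with 7 false calls. Shared sequence was counted as 50-base windows of GENCODE M21 transcripts found in transcripts of another gene.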

Additional observations from a re-analysis of the deposited data

Results flagged for a closer look

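Single libraries stood far from the other 4 of the Treg GR KO group (Dixon's test at the 95% level, 21 items tested, 6 of them past it). Chance gives about 1 in 20 for separate items. The flagged class sums contain Krt17, Krt6a and Krt79, which are flagged themselves, so the 6 are not separate items and their count cannot be set against chance. GR KO library 3 held Krt15 at 20.2 TPM (next highest 4.85), Krt17 at 25.4 TPM (next highest 1.58), Krt6a at 4.00 TPM (next highest 1.08), and the stress and wound keratins together at 29.4 TPM (next highest 3.31). GR KO library 2 held Krt79 at 9.68 TPM (next highest 2.47) and the suprabasal and cornifying keratins together at 12.4 TPM (next highest 6.27). The 2 libraries thus stood out for different keratins.

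Krt75 differed in direction between the cell types. In Treg every GR KO library lay below every GR WT library (difference -3.27 on the log2(TPM + 1) scale), and in HFSC every GR KO library lay above every GR WT library (0.822 to 2.08 against 0.422 to 0.626 TPM). In HFSC this rests on 4 to 9 tags per GR WT library and 12 to 30 per GR KO library, and Krt75 was below the filter and not tested. In Treg it passed the filter only through GR WT. Among tested genes, 5.1% in Treg had all GR KO libraries below, and 10.7% in HFSC had all above. The difference between the cell types was not tested.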

How the results depend on the processing

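In HFSC the number of keratins called was 0 under 14 of 16 alternatives, the leave-one-out fits included (lowest 0, highest 0), 1 with a robust prior (Krt17) and 3 with voom on recovered tags (Krt17, Krt5 and Krt79). In Treg the number was 7 and became 5 with a pseudocount of 0.1 TPM, with no filter and with a filter at 5 TPM (where Krt24 and Krt75 are not tested), 8 with voom (Krt79 added), 4 with a robust prior, 3 with replicates 1 to 3 only (chosen after seeing the data), and 3 to 7 when each library was left out. With the replicate number as a block it was 0 in HFSC and 3 in Treg (Krt15, Krt24 and Krt75, the same as without the block over those libraries). Whether replicate numbers pair the samples cannot be settled here. Same-numbered libraries correlated at -0.042 to 0.0619 in HFSC and -0.101 to 0.164 in Treg, and not every library correlated best with its own number. With 3 libraries per group centred on their own mean, such values cannot exclude a pairing. Over all genes, calls ran from 0 to 483 around 22 in HFSC and from 84 to 253 around 175 in Treg.

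Leaving out a library also moved HFSC Krt24 (0.06 to 0.58), Krt16 (0.31 to 0.86), Krt6a (0.31 to 0.68), Krt15 (-0.59 to -0.23) and Krt32 (-0.39 to -0.03) with no change of call. Signs turned for keratins that were not called. Leaving out a library gave Krt10 -1.17 to 0.10, Krt28 -0.36 to 0.20, Krt71 -0.16 to 0.74 and Krt42 -0.49 to 0.11 in HFSC, and Krt10 -0.84 to 0.14, Krt83 -0.19 to 0.39 and Krt222 -0.10 to 0.23 in Treg. With a pseudocount of 0.1 TPM Krt83 stood at -0.043 and Krt222 at -0.14. Krt222 was at -0.032 with voom, at -0.064 with the replicate block and at -0.064 with replicates 1 to 3 only. The cause of these changes was not tested. Depth limits the keratins near 3 tags, among them the simple, inner root sheath and hair shaft genes.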
